A study of Homo sapiens with 6 samples.

Results

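The interstitial parts of the autosomal arms were examined, that is the stretches of chromosomes 1 to 22 that lie away from both the ends and the centromere. The genome (hg38) was divided into bins of 200 kb, and a bin was taken as interstitial where it started more than 10 Mb from both ends of its chromosome and more than 5 Mb from the centromere. Chromosome 19 was left out. The rule, which used positions alone, gave 10924 bins (2184.8 Mb) of 14385 autosomal bins and of 15453 bins over chromosomes 1 to 22, X and Y. Of these, 3136 (28.7%) overlapped no protein-coding gene and are called gene-free below, whereas the other 7788 overlapped at least 1 and are called gene-bearing. The bins with which they are compared are 2121 within 10 Mb of an end and 1046 within 5 Mb of a centromere.

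The trimethylation of lysine 9 of histone H3 (H3K9me3) was mapped by chromatin immunoprecipitation and sequencing (ChIP-seq) in MCF10.DCIS.com, a human breast line that forms lesions resembling ductal carcinoma in situ. Control cells carried the empty vector pSLIK-neo-EV and RAB5A cells carried pSLIK-neo-RAB5A, in which the endocytic GTPase RAB5A is inducible with doxycycline. Both are stable lines selected after lentiviral infection of the same parental line, which expresses oncogenic RAS. The antibody ab176916 was used for replicate 1 of both conditions and ab8898 for replicate 2, which gives 4 libraries. RAB5A turns a jammed monolayer into a flowing one, and the comparison asks whether this alters constitutive heterochromatin. The data are lists of domains, long regions of raised ChIP over input, with 76 to 79 domains in a library over the whole genome. A bin is called where it lies in a domain of that library. The lists hold no read counts, so the depth behind a call is unknown and a bin that is not called may still carry the mark. On the X chromosome, RAB5A with ab8898 stood apart with 82.5% of bins called, against 64.8% to 67.9% in the other 3 libraries, but no X bin is used here.

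H3K9me3 is deposited by enzymes of the SUV39 and SETDB1 families and is bound by HP1 proteins, which help to keep the marked chromatin compact and silent. It is densest over the repeats of centromeres and near chromosome ends, and it also covers broad, gene-poor stretches of the arms, many of which touch the nuclear lamina in differentiated cells. Genes inside such stretches are often used in other tissues, such as neuronal receptor and adhesion genes in epithelial cells.

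Called interstitial bins hold both gene starts and gene-free deserts, and examples of each are shown with CG dinucleotides, the sites of DNA methylation, in capitals. The first 4 are the 250 bases before the RefSeq start (GRCh38.p14) of genes whose starts were called in all 4 libraries, and they were chosen after the calls were seen to show the range from CG-rich to CG-free. They lie at chr7:71131894-71132143 (plus strand, GALNT17), chr14:26598034-26598283 (minus, NOVA1), chr13:57631494-57631743 (plus, PCDH17) and chr11:48324670-48324919 (plus, OR4C3), and no annotated gene overlaps them. The last 2 are the 250 bases in the middle of the longest gene-free run called in all 4 libraries, chr13:55099876-55100125, and of the longest run free of both assembly gaps and calls, chr18:39699876-39700125. Both lie outside protein-coding genes and are given on the plus strand, and overlap with non-coding genes was not checked for them.
GALNT17: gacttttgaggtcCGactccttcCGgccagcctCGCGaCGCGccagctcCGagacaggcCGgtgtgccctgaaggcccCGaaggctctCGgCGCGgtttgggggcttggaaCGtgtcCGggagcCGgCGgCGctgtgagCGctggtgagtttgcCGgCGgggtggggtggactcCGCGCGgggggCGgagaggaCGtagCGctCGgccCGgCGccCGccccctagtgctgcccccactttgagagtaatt
NOVA1: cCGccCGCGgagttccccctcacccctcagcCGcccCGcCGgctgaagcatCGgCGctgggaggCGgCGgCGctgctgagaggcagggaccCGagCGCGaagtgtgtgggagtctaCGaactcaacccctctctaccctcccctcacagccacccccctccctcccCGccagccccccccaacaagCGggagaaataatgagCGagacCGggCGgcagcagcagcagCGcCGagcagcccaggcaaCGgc
PCDH17: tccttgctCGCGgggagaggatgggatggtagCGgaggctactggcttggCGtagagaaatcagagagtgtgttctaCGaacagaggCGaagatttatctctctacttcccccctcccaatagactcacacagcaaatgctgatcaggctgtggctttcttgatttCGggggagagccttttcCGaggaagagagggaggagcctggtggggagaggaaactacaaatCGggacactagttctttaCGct
OR4C3: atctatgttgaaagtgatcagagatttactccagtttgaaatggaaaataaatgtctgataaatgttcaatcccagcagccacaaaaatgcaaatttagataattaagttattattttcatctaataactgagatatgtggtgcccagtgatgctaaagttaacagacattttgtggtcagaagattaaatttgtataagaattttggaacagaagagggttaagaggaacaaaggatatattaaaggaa
Called desert between OLFM4 and PRR20A: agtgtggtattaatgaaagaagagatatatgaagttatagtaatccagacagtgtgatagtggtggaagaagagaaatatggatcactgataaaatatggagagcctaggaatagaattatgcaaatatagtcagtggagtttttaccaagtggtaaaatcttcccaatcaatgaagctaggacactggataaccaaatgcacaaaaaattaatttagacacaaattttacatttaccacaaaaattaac
Uncalled desert between CELF4 and PIK3C3: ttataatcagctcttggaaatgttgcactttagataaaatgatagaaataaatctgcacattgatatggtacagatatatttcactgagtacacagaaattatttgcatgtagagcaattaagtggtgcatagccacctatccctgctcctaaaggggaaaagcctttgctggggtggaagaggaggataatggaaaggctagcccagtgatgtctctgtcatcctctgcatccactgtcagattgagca
The stretch before GALNT17, which encodes a glycosyltransferase of the GalNAc-T family, held 30 CG, that before NOVA1, a neuronal splicing regulator, held 23, and that before PCDH17, a protocadherin of neurons, held 10. No CG stood before OR4C3, an olfactory receptor gene, nor in either desert window. Over the whole runs, the called desert held 1.35 CG per 250 bases at 35.2% GC and the uncalled desert 1.40 at 37.1% GC. The 6 sequences illustrate the members and were not compared by a test. The RefSeq table matched 98 of the 125 coding genes that start in a bin called in all 4 libraries, under the 80% needed, so a comparison of promoter composition is void.

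Gene-free interstitial bins were called more often than gene-bearing ones in every library. With ab176916, 217 gene-free bins (6.92%) were called in control and 224 (7.14%) in RAB5A, and with ab8898 the numbers were 191 (6.09%) and 194 (6.19%). Of the gene-bearing bins, 177 (2.27%) and 174 (2.23%) were called with ab176916 and 173 (2.22%) and 171 (2.20%) with ab8898, in the same order. The values for the 2 kinds of bin do not overlap, and the gene-bearing shares lie much closer together than the gene-free ones. Over all autosomal bins, the called share was 6.99% in control with ab176916, 6.79% in control with ab8898, 7.0% in RAB5A with ab176916 and 6.89% in RAB5A with ab8898, so gene-free bins lie near this background and gene-bearing bins well below it. The difference was 4.65 percentage points in control with ab176916, 3.87 in control with ab8898, 4.91 in RAB5A with ab176916 and 3.99 in RAB5A with ab8898. Its mean was 4.35 ± 0.504 (SD, n = 4 libraries), a ratio of 2.74 to 3.20, and it was positive in 4 of 4 libraries. The exact two-sided sign-flip permutation test over the 4 libraries gave p = 0.125, the smallest that it can give.

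**Figure D1:**
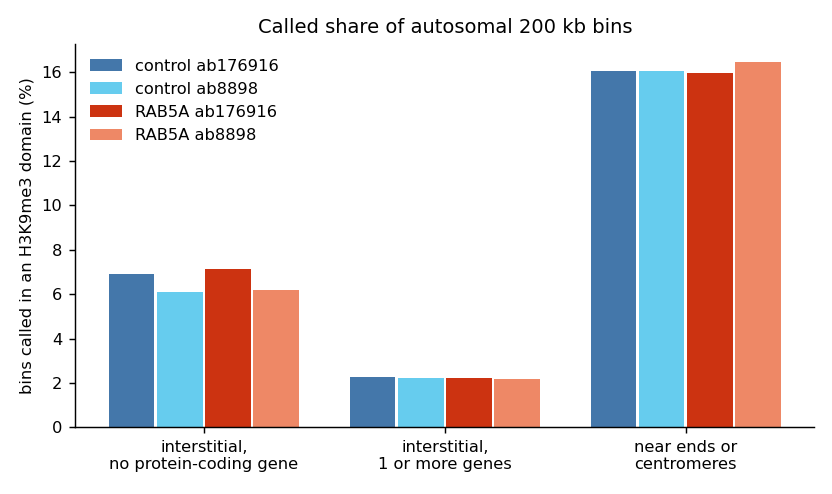
Percentage of 200 kb autosomal bins called in an H3K9me3 domain, for gene-free and gene-bearing interstitial bins and for bins near ends or centromeres (chromosome 19 left out). Each bar is 1 library. Gene-free bins sit at 6.09% to 7.14%, above gene-bearing bins at 2.20% to 2.27%, and both lie below the bins near ends or centromeres, which reach 16.5%.

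Interstitial chromatin as a whole was called less often than the rest of the autosomes. In control, 394 interstitial bins (3.61%) were called with ab176916 and 364 (3.33%) with ab8898, and in RAB5A 398 (3.64%) and 365 (3.34%). Bins within 10 Mb of an end were called at 16.5% to 16.9%, those within 5 Mb of a centromere at 14.7% to 15.5%. The interstitial share minus the share of these bins pooled was -12.7 percentage points on average (-13.1 to -12.3, negative in 4 of 4 libraries, p = 0.125 in the exact sign-flip permutation test, the smallest it can give). The interstitial arms nevertheless held 36.8% to 39.5% of the called autosomal bins, since they make up 75.9% of all autosomal bins.

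In the interstitial arms, the called share and the excess of gene-free bins differed between RAB5A and control cells by less than the SD within a condition. The libraries of a condition differ in antibody, so this SD includes the antibody difference. The called share was 3.47% ± 0.194 in control and 3.49% ± 0.214 in RAB5A (SD, n = 2), a difference of 0.0229 percentage points (exact permutation test, p = 0.667). The difference between gene-free and gene-bearing bins was 4.26 ± 0.550 points in control and 4.45 ± 0.649 in RAB5A, which is 0.192 points higher in RAB5A (exact permutation test, p = 0.667). For gene-bearing bins alone the difference in called share was -0.0321 points, with an SD of 0.0363 in control and 0.0272 in RAB5A. With 2 libraries against 2 the smallest possible p is 0.333, so no difference can reach 0.05 in this design. Within an antibody, RAB5A had a net 4 more called interstitial bins than control with ab176916 and 1 more with ab8898. Gene-free bins were 7 and 3 more, and gene-bearing bins 3 and 2 fewer, also net. More bins than this changed, in both directions. Of the interstitial bins called in either condition, both conditions shared 370 of 422 with ab176916 and 339 of 390 with ab8898.

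The net number of called gene-free bins differed more between antibodies than between conditions. With ab176916, 26 more gene-free bins were called than with ab8898 in control and 30 more in RAB5A. For gene-bearing bins the excess was 4 and 3 bins. Near the ends, ab176916 called 3 and 7 fewer bins than ab8898, and near the centromeres it called 4 more in control and 8 fewer in RAB5A. Such net counts hide bins that change both ways. Of the gene-free bins called with either antibody, both called 185 of 223 in control and 190 of 228 in RAB5A. Of those called in either condition, both conditions shared 204 of 237 with ab176916 and 178 of 207 with ab8898. Gene-free bins called with ab176916 in both conditions and with ab8898 in neither numbered 8. These counts describe 2 pairs of libraries per contrast, and antibody and replicate number cannot be told apart.

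**Figure D2:**
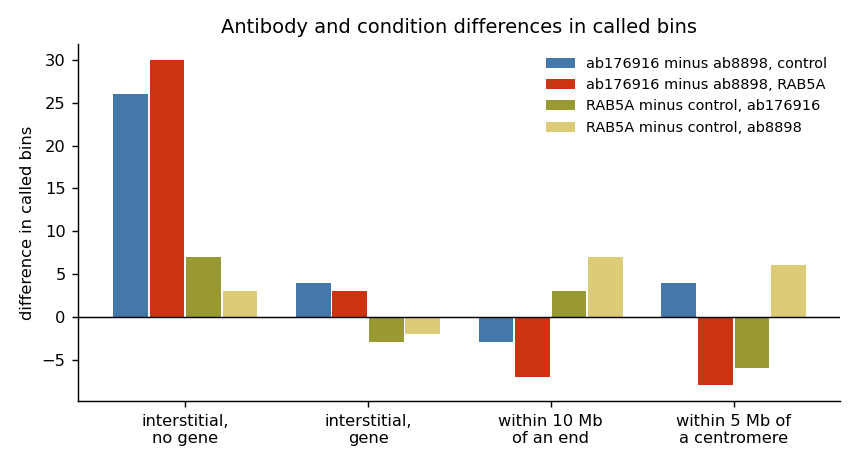
Differences in the number of called bins between the 2 antibodies within each condition, and between the 2 conditions within each antibody, for 4 kinds of autosomal bin. The antibody differences of 26 and 30 in gene-free interstitial bins exceed every other bar.

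The bins called in the 4 libraries were largely shared. Of 437 interstitial bins called in any library (87.4 Mb), 323 (64.6 Mb, 73.9%) were called in all 4. These are 2.96% of the interstitial bins, against 6.18% of all autosomal bins. The 323 comprised 172 gene-free bins (5.48%) and 151 gene-bearing bins (1.94%). Gene-free bins made up 53.3% of the bins called in all 4, 60.5% of the 114 called in 1 to 3 libraries and 27.6% of those called in none. The Jaccard index, the bins called in both libraries of a pair divided by those called in either, was 0.877 and 0.869 for the 2 pairs sharing an antibody. It was 0.849 and 0.847 for the 2 pairs sharing a condition, and 0.803 and 0.854 for those sharing neither. The order of antibody and condition reversed when shared bins were divided by the smaller list, and when domains below the 25th percentile of scores in their list were left out, so neither can be called the closer match.

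Called bins became rarer as genes were added, up to 3 or 4 genes. Averaged over the 4 libraries, 6.58% ± 0.525 of bins with no gene were called, 3.91% ± 0.169 with 1 gene, 1.31% ± 0.116 with 2 genes and 0.304% ± 0.0496 with 3 to 4 (SD, n = 4 libraries). The order of these 4 classes was the same in each library. Bins with 5 to 8 genes went the other way, at 1.22% ± 0.156, with 8 to 10 of 738 bins called, and of 153 bins with 9 or more genes 1 was called in each library. That bin, chr1:13200001-13400000, was called in all 4 libraries and overlaps 9 coding genes, all of the PRAMEF family, whose products resemble a tumour antigen expressed in testis. These genes are near-identical copies, so reads may be split among them and the call over them is uncertain.

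**Figure D3:**
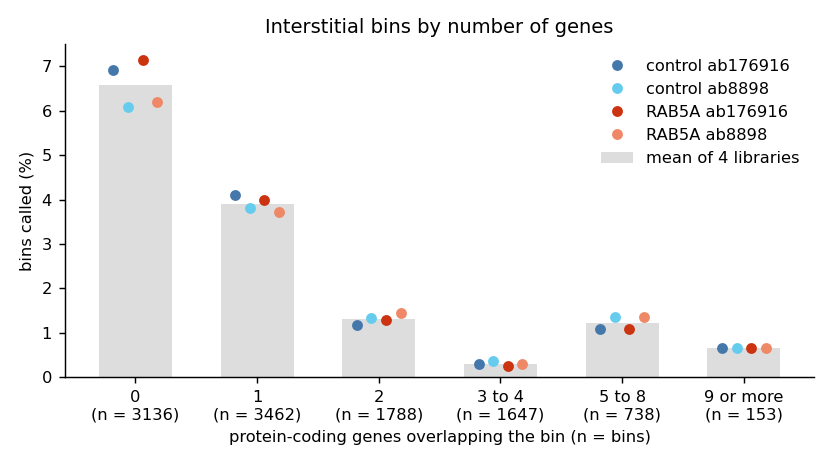
Percentage of interstitial bins called, by the number of protein-coding genes overlapping the bin. Points are the 4 libraries and grey bars their mean, which falls from 6.58% with no gene to 0.304% with 3 to 4 genes and stands at 1.22% with 5 to 8.

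Gene-bearing bins that were called held the inside of genes more often than their starts. Of the 151 gene-bearing bins called in all 4 libraries, 119 (78.8%) overlapped 1 gene, against 44.5% of all gene-bearing bins. In 90 of them (59.6%) no protein-coding gene started, whereas the same held for 27.6% of the gene-bearing bins called in no library. Counted by their starts, the called genes were not longer in general. The median length of the 125 genes whose start was called in all 4 libraries was 21.2 kb, against 33.1 kb for genes whose start was called in none. Of the 125 starts, 34 lie in 1 stretch, chr1:12600001-14800000, whose genes had a median length of 6.90 kb. Many are copies of the PRAMEF family, over which the call is uncertain, so the median and the share under 20 kb rest partly on 1 domain. The called share was 1.21% of 5030 genes under 20 kb, 0.501% of 5592 genes of 20 to 100 kb, 0.878% of 2621 genes of 100 to 500 kb and 5.02% of 259 genes over 500 kb (13 genes), beside 0.926% of all 13502 coding genes starting in interstitial bins. The domains covered the whole body of CTNNA2 (1463.63 kb), an alpha-catenin of neurons, of DPP10 (1403.48 kb), which encodes a partner of potassium channels, and of LRRC4C (1345.57 kb), a synaptic adhesion gene, in 4 of 4 libraries.

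The gap between gene-free and gene-bearing bins was present at every GC content. The interstitial bins were divided into 5 classes of equal number by GC content, using bins with at least 50% determined bases. In all 5 classes and all 4 libraries, gene-free bins had the higher share. The difference was smallest in the middle class (38.3% to 40.5% GC), at 1.81 to 2.20 points, and largest in the most GC-rich class (43.5% to 57.1%), at 9.98 to 12.5 points. Among gene-free bins the called share was 6.49% on average in the most AT-rich class and 13.8% in the most GC-rich one, which held 130 gene-free bins. Gene-bearing bins stayed between 1.65% and 2.73% over the 5 classes. The mean difference over the classes, each weighted equally, was 6.22 points, against 4.35 without regard to GC.

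**Figure D4:**
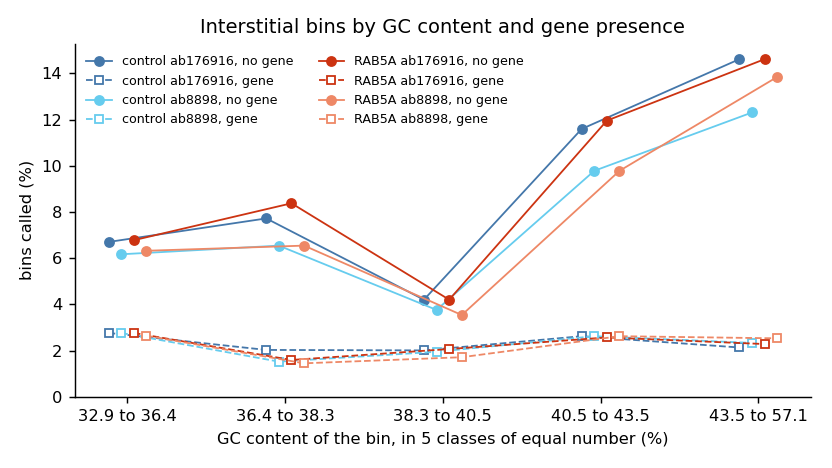
Percentage of interstitial bins called in 5 classes of GC content holding equal numbers of bins. Filled circles with full lines are gene-free bins, open squares with dashed lines gene-bearing bins, 1 colour per library. The gene-free share lies above the gene-bearing share in each class, by 1.81 to 2.20 points in the middle class and 9.98 to 12.5 points in the most GC-rich.

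The median GC content of the called and uncalled bins was close when genes were taken into account, although called shares differed between the GC classes above. The median was 36.8% in gene-free bins called in all 4 libraries and 36.7% in gene-free bins called in none. The upper quartiles of these bins were 39.6% and 38.8%. For gene-bearing bins the median was 41.1% and 40.4%. CG dinucleotides were found at 0.184 of the number expected from base composition in called gene-free bins and at 0.174 in uncalled ones (medians). A long non-coding RNA gene overlapped 57.6% of the gene-free bins called in all 4 and 62.9% of those called in none, so a lack of protein-coding genes in a called bin does not mean a lack of annotated transcripts.

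Bins in long deserts were called more often than bins in short ones. Of the bins in runs of neighbouring gene-free bins 1 bin long, 3.23% ± 0.397 were called on average. The share was 2.47% ± 0.00 in runs of 2 bins and 3.87% ± 0.853 in runs of 3 to 5 (SD, n = 4 libraries). It reached 9.40% ± 0.558 in runs of 6 to 10 bins and 8.96% ± 0.739 in runs of 11 or more. The last class has 887 bins, of which 73 on chromosome 1 and 63 on chromosome 9 hold assembly gaps. None of these was called, which lowers its share. In each library, both of the longer classes stood above the 3 shorter ones. Short runs were called too, as 8 runs of 1 bin, 4 of 2 bins and 5 of 3 to 5 bins were called whole in all 4 libraries, and the longest deserts of the arms were called in none. The 3 longest runs were a run of 15.2 Mb on chromosome 1 and one of 12.6 Mb on chromosome 9, which are almost wholly assembly gaps that cannot be called, and a desert of 4.6 Mb between PCDH7 and ARAP2 on chromosome 4, which has sequence. The longest runs called in all 4 libraries were 3.8 Mb between OLFM4 and PRR20A (chr13:53200001-57000000), 2.8 Mb between GOT2 and CDH8 (chr16:58800001-61600000) and 2.2 Mb between TMPRSS15 and NCAM2 (chr21:18600001-20800000).

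The called bins fell in few places. Joined with their neighbours, the bins called in any library made 31 stretches, of which 24 held bins called in all 4 libraries. The stretches called in all 4 ranged from 0.2 to 6.4 Mb with a median of 2.1 Mb, and the 12 longest (49.4 Mb) made up 76.5% of their length. Stretches are cut where the interstitial arms end, so a short stretch can be part of a longer domain. The stretch of 0.2 Mb at chr11:48200001-48400000, for example, belongs to a domain of 2.2 Mb in each library. None was without a gene-bearing bin, 6 were without a gene-free bin, and in 9 the gene-free bins were over 50%. Of 21 chromosomes with interstitial bins, 13 had bins called in all 4 libraries, 5 (chromosomes 4, 6, 8, 9 and 18) had no call in any library, and 3 (chromosomes 3, 10 and 12) had calls in 1 to 3 libraries. On chromosome 4, 315 of 800 bins were gene-free and none was called, whereas on chromosome 16, 38.2% of 89 gene-free bins were called in all 4. The gene-free share was the higher in 10 of the 13 chromosomes, and the gene-bearing share in the other 3 (chromosomes 1, 17 and 20).

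The longest stretch called in all 4 libraries was chr13:53200001-59600000, with 30 gene-free bins and 2 gene-bearing ones, which hold the near-identical copies PRR20A to PRR20E and the neuronal protocadherin gene PCDH17. The next, chr21:17800001-23400000, held CHODL, TMPRSS15, the gene of the gut protease that activates trypsinogen, and NCAM2, a neural cell adhesion gene, and 20 of its 28 bins were gene-free. On chr16:58800001-64000000, 23 bins were gene-free and the other 3 belonged to CDH8, a cadherin of neurons. On chr14:25200001-27800000, NOVA1 was the only coding gene, with 12 gene-free bins and 1 gene-bearing bin.

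Other long stretches were filled with genes. On chr7:67200001-72600000, 16 of 27 bins were gene-bearing, and the bodies of AUTS2 (1195.21 kb), a gene linked to neurodevelopment, GALNT17 (581.457 kb) and CALN1 (667.661 kb) were covered whole in 4 of 4 libraries. The stretch was called over the same 5.4 Mb in each. The region chr15:24200001-28200000 had 16 gene-bearing bins and 4 gene-free ones and holds the imprinted genes SNRPN, SNURF and UBE3A, together with ATP10A and OCA2, a pigmentation gene. The region chr2:76600001-81200000 had 14 gene-bearing bins of 23, with LRRTM4 (845.635 kb), LRRTM1 and CTNNA2 beside the secreted lectin genes REG3G, REG1B, REG1A and REG3A of the gut and pancreas.

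Chromosome 2 held 2 more of the 12 longest, chr2:114000001-117800000 with DPP10 alone, called over the same 3.8 Mb in each library, and chr2:124200001-127000000 with CNTNAP5, GYPC and TEX51. On chr11:39200001-43400000 the genes were LRRC4C, API5 and TTC17. On chr5:160600001-163200000 they included ATP10B, which encodes a phospholipid transporter. The last, chr1:12600001-14800000, had no gene-free bin and overlapped 34 coding genes, among them DHRS3, AADACL4, AADACL3, CFAP107 and PRAMEF12.

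**Figure D5:**
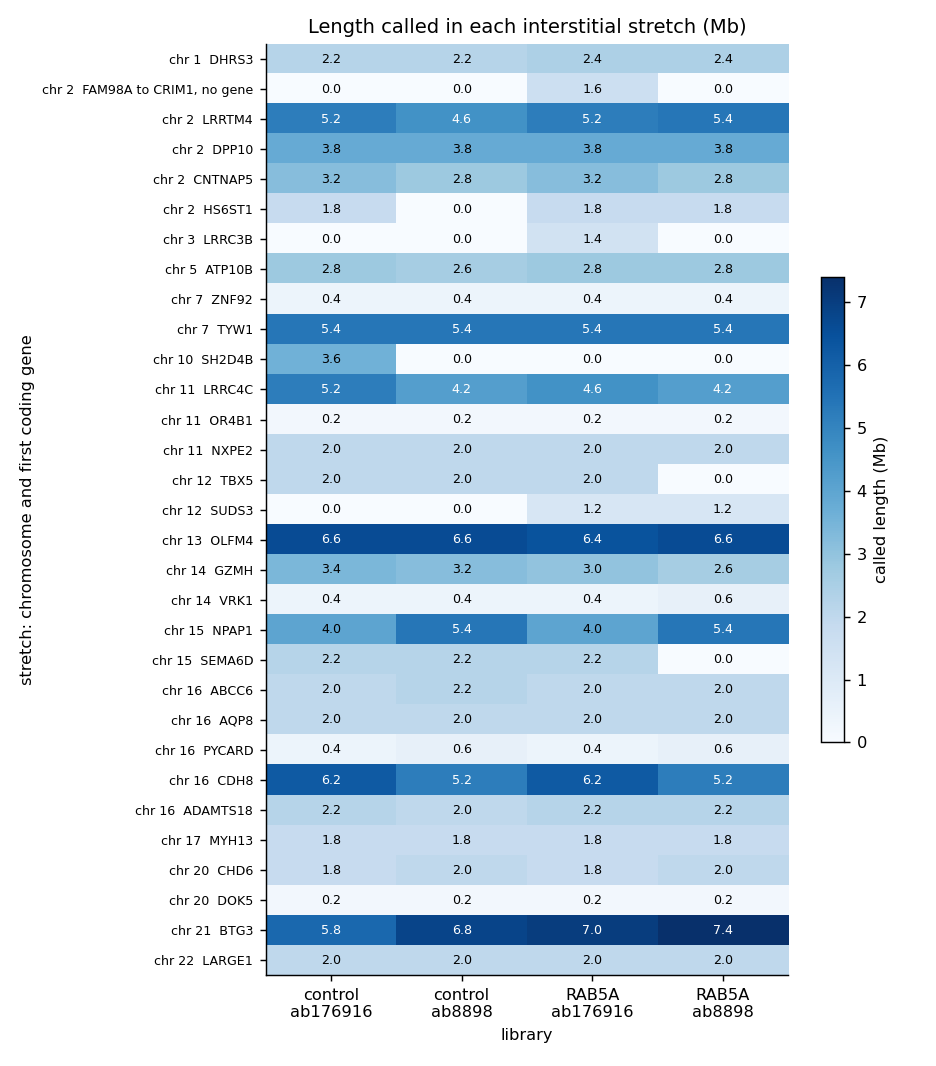
Length called (Mb) in each of the 31 interstitial stretches, 1 row per stretch in genomic order and 1 column per library, with the chromosome and its first coding gene. Darker blue is longer. Stretches such as those of DPP10 (3.8 Mb) and TYW1 to CALN1 (5.4 Mb) have the same length in each library, and 7 rows hold 0 in at least 1 library.

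The gene families were counted by the bin in which each gene starts, beside 0.926% of all coding genes starting in interstitial bins. Of 29 synaptic adhesion genes, 3 (LRRC4C, LRRTM4 and LRRTM1) were called in all 4, and 4 with ab176916. A list of very large genes had 2 of 12 (WWOX and CTNNA2), and cadherins had 1 of 19 (CDH8).

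Olfactory receptor genes had 6 of 152 starts called in all 4 libraries, OR4B1, OR4X2, OR4X1, OR4S1, OR4C3 and OR4C5, all in the single bin chr11:48200001-48400000. Zinc finger genes, whose clusters are classical H3K9me3 targets, had 4 of 169 (ZKSCAN2, ZNF843, ZNF18 and ZNF92). Protocadherins had 1 of 63 (PCDH17) and solute carriers 1 of 244 (SLC5A2). No start was called in any library among 127 keratin and keratin-associated, 67 potassium channel, 81 histone and 39 homeobox cluster genes. The same held for 61 ribosomal protein, 24 taste receptor, 11 defensin and 8 interferon response genes. With 0.926% of all coding genes called in all 4 libraries, a list of such size without a called start says little about its family.

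Few of the 437 interstitial bins called in any library separated the conditions, and the same count was not made for the other autosomal bins. The mean Jaccard index between control and RAB5A with the same antibody was 0.873 here, 0.906 near ends and 0.951 near centromeres. Both RAB5A libraries but neither control library called 7 bins, 6 of them at chr12:118400001-119600000, with SUDS3, SRRM4, HSPB8, CCDC60 and TMEM233, and 1 at chr1:14800001-15000000 inside KAZN. The chromosome 12 domain ranked low, as its score stood at percentiles 6.33 and 3.95 of the domains of its 2 libraries. Both control libraries but neither RAB5A library called 2 bins, chr14:24600001-25000000, with the granzyme genes GZMH and GZMB of cytotoxic lymphocytes and STXBP6, next to the stretch of NOVA1. Of the RAB5A bins 1 was gene-free, and of the control bins 0.

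The bins that separated the antibodies differed in gene content, but they were few and lay in few places. Both ab176916 libraries but neither ab8898 library called 11 bins in 5 places, 8 of them gene-free, the longest being chr16:64000001-65000000, which extends the stretch of CDH8 into the body of CDH11, another cadherin gene. The others were chr11:38800001-39200000, chr14:27800001-28000000, chr2:123800001-124200000 with the start of CNTNAP5, and chr21:17600001-17800000 with BTG3 and C21orf91. Both ab8898 libraries but neither ab176916 library called 9 bins in 3 places, none gene-free. Of these 9 bins, 7 lie in 1 place on chromosome 15, and of the 11 above 5 lie in 1 place on chromosome 16. Among all interstitial bins 28.7% were gene-free, but among those called in 1 to 3 libraries, the closer comparison, 60.5% were. The 3 places were chr15:28200001-29600000, which extends the stretch of UBE3A over HERC2 and copies of the GOLGA family, chr16:31200001-31400000 with PYCARD, TRIM72, PYDC1, ITGAM and ITGAX, and chr20:43400001-43600000 with SRSF6, L3MBTL1 and SGK2.

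Some stretches were called in 1 library alone or were missing from 1. Control with ab176916 alone called chr10:80600001-84200000, where NRG3 (1111.99 kb), a growth factor of the neuregulin family, was covered whole, at score percentile 39.7 of its domains. RAB5A with ab176916 alone called the gene-free chr2:33600001-35200000 and chr3:25800001-27200000, with LRRC3B and NEK10, at score percentiles 7.59 and 2.53 of its domains. RAB5A with ab8898 lacked chr12:114000001-116000000, with the developmental regulators TBX5 and TBX3 and with MED13L, and chr15:45800001-48000000 with SEMA6D, an axon guidance gene. The domain of TBX5 stood at percentiles 35.9 and 36.8 in the control libraries and at 1.27 in RAB5A with ab176916, so it ranked low there too. That of SEMA6D stood at 23.1 and 10.5 in the control libraries and at 12.7 in RAB5A with ab176916. Control with ab8898 lacked chr2:128200001-130000000 with HS6ST1 and RAB6C. In the excess of gene-free bins with ab176916, 8 bins were the same in the 2 conditions, and the others came from different places. In control they included 10 gene-free bins on chromosome 10 and 7 in the stretch of HS6ST1. In RAB5A they included 8 on chromosome 2, 5 on chromosome 3, 6 in the stretch of TBX5 and 7 in that of SEMA6D. Going the other way, ab8898 but not ab176916 called 6 gene-free bins in control and 4 in RAB5A.

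Domains inside the arms scored lower per bin than domains elsewhere on the autosomes, but not lower in total. Of the domains touching interstitial bins, 19 to 23 in a library lay wholly inside the interstitial arms, and these held 87.4% to 90.7% of the called interstitial bins. Their median length was 2.80, 2.60, 2.20 and 2.60 Mb in control with ab176916, control with ab8898, RAB5A with ab176916 and RAB5A with ab8898, against 2.00 to 2.20 Mb for the other autosomal domains. Their median score per bin was 0.917 to 1.03, and that of the other domains 1.12 to 1.34, lower inside the arms in 4 of 4 libraries. The median total score went the other way, at 12.7 to 14.1 inside the arms and 11.5 to 13.6 elsewhere, higher inside in 4 of 4 libraries. Scores have no stated unit and were compared within a library.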

How the data were processed

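H3K9me3 ChIP-seq was analysed in 2 control and 2 RAB5A libraries of MCF10.DCIS.com cells. The 2 input libraries were not analysed here. Per the labels and the study's methods, the authors trimmed reads with Trimmomatic 0.39, aligned them to hg38 with BWA 0.7.17-r1188, marked duplicates with Picard 2.22 and kept mapping quality of at least 1 with SAMtools 1.9. Domains were called per library with EDD 1.1.19 (bins of 200 kb, gap penalty 25, informative fraction 0.98, ENCODE exclusion list), which weighs ChIP against input. The deposited lists give each domain's position and a score without a stated unit, so signal below the calling threshold is not visible.

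Bins, genes (GENCODE 44, overlap of at least 1 bp) and base composition were computed with Python 3.11.15, NumPy 2.4.6, SciPy 1.17.1 and pandas. Centromere positions on hg38 were approximate midpoints. Scripts were tested on simulated data. The reference carries no repeat masking, so repeat content was not computed. Tests were exact two-sided permutations over libraries. Bins are not replicates and were not tested. Nothing says that the libraries of a condition came from separate cultures, so p-values measure the spread between libraries, which differ in antibody. The replicate number is the antibody, so libraries were also paired by it, as a shared reagent given in the labels. Members, gene lists and classes were chosen with earlier results of these data known, and the classes of GC, gene number, run length and gene length with the calls in view.

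Regions were named by a rule: the 12 longest stretches called in all 4 libraries, every stretch specific to a condition or an antibody, the 3 longest of a single library, the 3 longest gene-free runs and the 3 longest called ones, and the called bin with most genes, with up to 5 coding genes each and up to 8 per gene list. The desert on chromosome 18, the stretches missing from 1 library and further genes of a stretch were added after the values were seen. Alternatives were a score filter, domains of at least 1 Mb, merging of domains closer than 400 kb, bins without gaps, margins of 15 Mb and 10 Mb, other gene definitions, 1 Mb windows and leaving out either replicate. Added after seeing the data were leaving out each chromosome and weighting 5 GC classes equally. Some genes of the named stretches and 1 gene list are not reported here.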

Additional observations from a re-analysis of the deposited data

Results flagged for a closer look

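The contrast between interstitial and other autosomal bins moved in opposite directions under the 2 antibodies. From control to RAB5A, the called share of interstitial bins minus that of bins near ends and centromeres rose by 0.131 percentage points with ab176916 and changed by -0.401 points with ab8898. Each antibody has 1 library per condition, and the difference between the antibodies was not tested. In bins near ends, RAB5A had 3 more called bins than control with ab176916 and 7 more with ab8898, and in bins near centromeres 6 fewer and 6 more.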

How the results depend on the processing

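Of 58 alternative values of the 5 results, 52 kept their direction, but 9 of these equal the main value and show nothing about stability. They come from the 1 Mb minimum, which removed no domain (the shortest is 1 Mb), from merging, which left 3 of its 4 values unchanged, and from the pairing, which keeps the value by construction. The excess of gene-free over gene-bearing bins was positive in all 28 alternatives, between 3.65 and 6.65 percentage points, the highest in 1 Mb windows, and between 3.65 and 4.87 with each of 16 chromosomes left out. It ranged from 3.93 to 4.78 without either replicate. Interstitial bins stayed below other autosomal bins in all 7 alternatives (-14.1 to -9.61 points), -12.9 to -12.4 without either replicate. The difference between conditions in called share was -0.0331 points with the wider margins, against 0.0229, and 0.00915 to 0.0366 without either replicate. That in the excess of gene-free bins was -0.0131 with the score filter, -0.00812 with genes counted where they start and -0.102 in 1 Mb windows, against 0.192, and 0.121 to 0.262 without either replicate. With the replicate block, libraries paired by antibody, the 2 differences were 0.0229 and 0.192 points (p = 0.5 each, exact sign-flip test, the smallest it can give). The mean Jaccard index of pairs sharing an antibody minus that of pairs sharing a condition was 0.0249, and became -0.0308 with the score filter and -0.0223 when divided by the smaller list. The cause of these reversals was not tested. No exact test could pass 0.05, so its p shows nothing about stability. Depth per library is unknown, so calls missing from a library cannot be told apart from calls lost to shallower sequencing.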

Other observations

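Called shares did not follow the distance from the chromosome end in 1 direction. Interstitial bins starting under 20 Mb from the nearer end were called at 5.04% ± 0.238 on average (SD, n = 4 libraries), those at 20 to 30 Mb at 5.91% ± 0.256, and those at 30 to 50 Mb at 1.45% ± 0.296. At 50 to 80 Mb the share was 2.93% ± 0.278 and over 80 Mb 3.81% ± 0.438. Gene-free bins had the higher share called in all 4 libraries in each of these 5 classes, by 1.95 to 7.09 percentage points.

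Gene-free bins with a long non-coding RNA gene were called at 6.35% ± 0.545 and those without at 6.99% ± 0.610 (SD, n = 4 libraries). The bins without one had the higher share in each of the 4 libraries, at 7.69% against 6.46% in control with ab176916, 6.32% against 5.95% in control with ab8898, 7.26% against 7.07% in RAB5A with ab176916 and 6.67% against 5.90% in RAB5A with ab8898. This difference was not tested.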
